A study of Mus musculus with 9 samples.

Results

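The genes described here are 32 mouse genes of complement and of antigen presentation by the major histocompatibility complex (MHC), chosen by their listed symbols and matched to Ensembl identifiers among the 55421 genes of the count table. They are 7 class I chains, 7 genes of the pathway that makes and loads class I peptides, 7 class II genes, 6 complement components, and 5 complement receptors and regulators. Their RNA was measured by bulk sequencing of hippocampal cells, dissociated with trypsin and sorted as live cells for tdTomato, a red fluorescent protein that the mice carried in neurons. There were 3 groups of 3 libraries, given as 3 mice each. The first group was wild-type mice with a sham operation, in which every step but the impact was done. The second, also wild-type, received mTBI (mild traumatic brain injury), given as 1 mild controlled impact on the cortex. The third held Tmsb4x conditional knockout mice that received the same injury. The labels do not give age, sex, time after injury, the Cre driver or the deleted part of Tmsb4x, and there was no group of knockout mice with a sham operation.

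MHC class I molecules, a heavy chain paired with beta-2-microglobulin, display peptides cut by the proteasome, carried into the endoplasmic reticulum by the TAP transporter and loaded with the help of tapasin. Class II molecules display peptides from ingested proteins, and in the brain they are known mainly from microglia, border macrophages and infiltrating leukocytes. Class I promoters carry an X box and a Y box that the coactivator NLRC5 acts through, and class II promoters carry related boxes that CIITA acts through. In the complement cascade the proteases C1r and C1s cleave C4 and C2, the resulting enzyme cleaves C3, and membrane-bound and soluble regulators restrain these steps. In the brain, complement is known for tagging synapses and debris for uptake by microglia.

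Library totals lay between 36452443 and 39590872 counts, and between 25981 and 26857 genes had a count. The targeted gene Tmsb4x, which encodes the actin-binding peptide thymosin beta 4, had 70, 109 and 108 counts in the knockout mTBI libraries and 35061, 21678 and 11921 in the wild-type mTBI libraries. It had only 105, 61 and 85 counts in the libraries labelled wild-type sham, so these went against their label and lay at the level of the knockout. They are called the libraries labelled sham below, and every direction drawn from them rests on that label. They also lay closer together than the other libraries, with a biological coefficient of variation between replicates of 3.26%, where wild-type mTBI had 19.6% and knockout mTBI 18.7%. Of the 32 members, the median coefficient of variation was 12.9%, 29.1% and 27.4% in the same order. In wild-type mTBI replicate 3, Xist, a gene expressed in females, was at 835 CPM and Ddx3y, which lies on the Y chromosome, at 0.0498 CPM. CPM are counts scaled to a common library total. Elsewhere Xist reached no more than 0.892 CPM and Ddx3y was never below 49.7 CPM. Wild-type mTBI replicate 1 stood apart as well, being more than 2-fold below all other 8 libraries in 127 of 15605 genes and above them in 3.

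The promoter boxes searched first were an X2 core (TGACG) followed by a Y box (ATTGG on the strand shown, CCAAT on the other). RefSeq promoter windows on GRCm38.p6, searched over the 250 bases before each start, were matched for 23 of the 32 members. Single boxes were searched on both strands. The pair was searched in 1 orientation only, TGACG before ATTGG on the strand of the gene. The pair was sought with the first bases of its boxes 23 to 26 bases apart. It was present in 38 of 32851 promoter windows of all genes (0.116%) and in those of 5 members. These 5 stretches are shown because their letters match boxes that the class I and class II coactivators act through. The capitals mark the X2 core and the Y box, and the strand given is that of the gene.
H2-K1, minus strand, chr17:34000351-34000396: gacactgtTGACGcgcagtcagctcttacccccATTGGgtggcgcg
H2-D1, plus strand, chr17:35262985-35263030: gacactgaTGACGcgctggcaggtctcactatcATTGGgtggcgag
H2-M3, plus strand, chr17:37270180-37270225: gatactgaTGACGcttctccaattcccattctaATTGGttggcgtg
B2m, plus strand, chr2:122147601-122147646: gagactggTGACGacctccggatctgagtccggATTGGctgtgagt
H2-Aa, minus strand, chr17:34287859-34287905: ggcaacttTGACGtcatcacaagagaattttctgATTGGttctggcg
From first base to first base, the boxes lay 25 bases apart in the 4 class I genes and 26 in the class II gene H2-Aa.

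The other boxes were more widespread. A Y box was found in 7 of 7 class I chains, 3 of 5 matched peptide pathway genes, 4 of 4 matched class II genes and 1 of 7 matched complement genes, against 33.8% of all promoter windows. An X2 core was found in 6, 2, 1 and 1 of these, against 17.8% of windows. The interferon-response core GAAANNGAA was present in H2-T22, H2-T23, B2m, C5ar1 and Cd59a, against 7.13% of windows. The kappaB motif GGGNNTTCC was found in 5 members and the gamma-activated motif TTCNNNGAA in 2, against 4.98% and 7.02% of windows. Psmb9 and Tap1, a proteasome subunit and a transporter subunit, are transcribed in opposite directions from 1 shared stretch, shown because both genes are members and both are described below. It spans chr17:34187331-34187555 on the plus strand, 225 bases between the RefSeq starts, with a Y box and an X2 core in capitals.
Psmb9-Tap1: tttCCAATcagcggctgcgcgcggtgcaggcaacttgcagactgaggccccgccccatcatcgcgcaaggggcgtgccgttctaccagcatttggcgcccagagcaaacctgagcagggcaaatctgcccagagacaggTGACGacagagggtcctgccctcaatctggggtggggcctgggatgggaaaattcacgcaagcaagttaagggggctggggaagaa
A match to these letters is a description of the sequence and not a measured binding site.

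Levels of the members differed widely. Per kilobase of exon, over all 9 libraries, B2m was at 87.2 CPM per kb and the class I heavy chains followed at 21.2 for H2-D1, 7.55 for H2-K1, 2.39 for H2-T22, 1.78 for H2-T23, 1.45 for H2-Q4 and 1.04 for H2-M3. In the peptide pathway the order ran from Psmb10 at 11.9 and Tapbp at 5.84 to Psmb9 at 0.4 and Nlrc5 at 0.192 CPM per kb. H2-DMa at 3.57 and Cd74 at 2.34 led the class II genes, while H2-Aa was at 0.377 and Ciita at 0.291. C4b led the 6 listed complement components at 7.35 CPM per kb, followed by C1ra at 0.918 and C3 at 0.731, with Cfb lowest of all members at 0.0992. Serping1 and Cd59a were at 4.14 each among the regulators, above Cd55 at 1.45, C3ar1 at 0.53 and C5ar1 at 0.343. All 32 members passed the filter on low counts that left 20032 genes for testing.

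Counting limits bear on some members, since the file headers show no strand option. Of the exon bases of Cfb 79.5% overlap another annotated gene, and of those of C2 46.9%. The levels per kilobase divide by all exon bases, overlapped ones included, so the low rank of Cfb carries this limit. H2-T22, Tapbp, H2-Q4, Tap2, C1s1, Psmb8 and H2-DMa overlap other genes over 29.4% to 10.4% of their exon bases, and Tap1 and Psmb9 share 212 exon bases. Stretches of 150 bases identical to another locus made up 26.3% of C1ra (with C1rb), 7.48% of C4b (with C4a) and 4.71% of H2-DMb1 (with H2-DMb2), and at most 2.46% of the others. In bulk RNA, fewer cells of a type and less RNA per cell cannot be told apart.

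Neuronal markers were abundant in all libraries, with a sum over 4 markers of 7105 to 8410 CPM. Marker RNA of other cell types was present as well, and whether it came from sorted cells was not tested. The 5 astrocyte markers summed to 3486 to 4483 CPM, the 4 oligodendrocyte markers to 4002 to 7306 and the 8 microglia markers to 260 to 328. B cell markers summed to 0.283 to 0.935 CPM and T or NK cell markers to 0.437 to 1.00. The monocyte or neutrophil markers summed to 1.05 to 1.93 CPM in the libraries labelled sham, 0.385 to 3.54 in wild-type mTBI and 1.44 to 7.65 in knockout mTBI, the highest value being knockout mTBI replicate 2. Of these, the neutrophil marker Ly6g was at 0 in 8 of the 9 libraries, while Ccr2, S100a8 and S100a9 had counts in all 9.

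Between the groups, no member passed the threshold of the quasi-likelihood test of edgeR (adjusted p under 0.05 over all genes tested) in any of the 3 comparisons. The members at an unadjusted p under 0.05 were all higher in the group named first. In wild-type mTBI against the libraries labelled sham these were the class II genes Cd74, H2-Aa and H2-DMb1, the peptide-loading gene Tapbp and the complement regulator Cd59a. In knockout mTBI against wild-type mTBI they were the class I pathway genes B2m, Tap1, Psmb9 and Nlrc5 and the complement genes C3, C4b, C1ra and C3ar1. In knockout mTBI against the libraries labelled sham they were H2-K1, H2-Q4, Tapbp, Nlrc5, Cd74, H2-Aa, H2-Ab1, C1s1, C1ra and Cd59a. The comparisons share libraries with each other, so their values are set side by side only.

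In wild-type mTBI minus the libraries labelled sham, edgeR called 0 of 32 members, against 0.509% of all genes tested (102 genes). DESeq2 called 2 members, where it called 2.58% of all genes, and limma voom with sample quality weights called 3, where it called 3.6%. At an unadjusted p under 0.05, 5 members (15.6%) were higher, against 7.45% of all genes, and 0 were lower, against 5.79%. Knockout mTBI replicate 2 enters here only through the filter on low counts, the scaling and the shared spread. Without that library 11 members had such a p, in a fit where 14.2% of all genes did in either direction. Of the 28 members with a mean of at least 1 CPM, the 3 libraries of one group lay all above those of the other in 5 (17.9%) and all below in 1 (3.57%), against 13.9% and 12.1% of the 15605 genes at that level. The log2 fold change was above 0 for 19 of 32 members (59.4%), against 53% of all genes. Its median was 0.0176 over all genes and 0.13 over the members. Without wild-type mTBI replicate 3 that median was -0.13, so its sign rested on this library, and it was 0.23 and 0.26 without replicates 1 and 2 of that group.

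In knockout minus wild-type mTBI, edgeR called 0 members against 0.015% of all genes (3 genes). DESeq2 and voom also called 0 members, where they called 0.111% and 0.02% of all genes. At an unadjusted p under 0.05, 8 members (25%) were higher, against 3.25% of all genes, and 0 were lower, against 3.35%. Leaving out wild-type mTBI replicate 2 gave a count of 1, in a fit where 10.9% of all genes had such a p in either direction. Leaving out replicate 1 of that group gave 2 members against 6.06% of genes, and leaving out its replicate 3 gave 12 against 10.1%. It was 2 against 7.02% without knockout mTBI replicate 2. The libraries labelled sham enter here only through the filter on low counts, the scaling and the shared spread. Leaving out their replicate 1, 2 or 3 gave a count of 4, 4 or 5, against 4.79%, 4.86% and 4.85% of genes. The groups did not overlap for 3 of 28 members (10.7%), all higher, against 4.23% of genes higher and 5.32% lower. The log2 fold change was above 0 for 23 of 32 members (71.9%), against 50.2% of all genes. Its median was 0.0012 over all genes and 0.21 over the members. The median over the members was 0.40 without wild-type mTBI replicate 3 and 0.36 without knockout mTBI replicate 3.

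In knockout mTBI minus the libraries labelled sham, edgeR called 0 members against 0.0699% of all genes (14 genes). DESeq2 called 3 members, where it called 1.08% of all genes, and voom called 2, where it called 1.39%. At an unadjusted p under 0.05, 10 members (31.2%) were higher, against 4.58% of all genes, and 0 were lower, against 2.62%. The groups did not overlap for 11 of 28 members (39.3%), all higher, against 9.45% of genes higher and 8.94% lower. The log2 fold change was above 0 for 28 of 32 members (87.5%), against 52.6% of all genes. Its median was 0.0099 over all genes and 0.41 over the members. Without knockout mTBI replicate 2 the median was 0.24. The members share pathways, chromosomal neighbourhood and libraries, and these shares are descriptions.

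**Figure D1:**
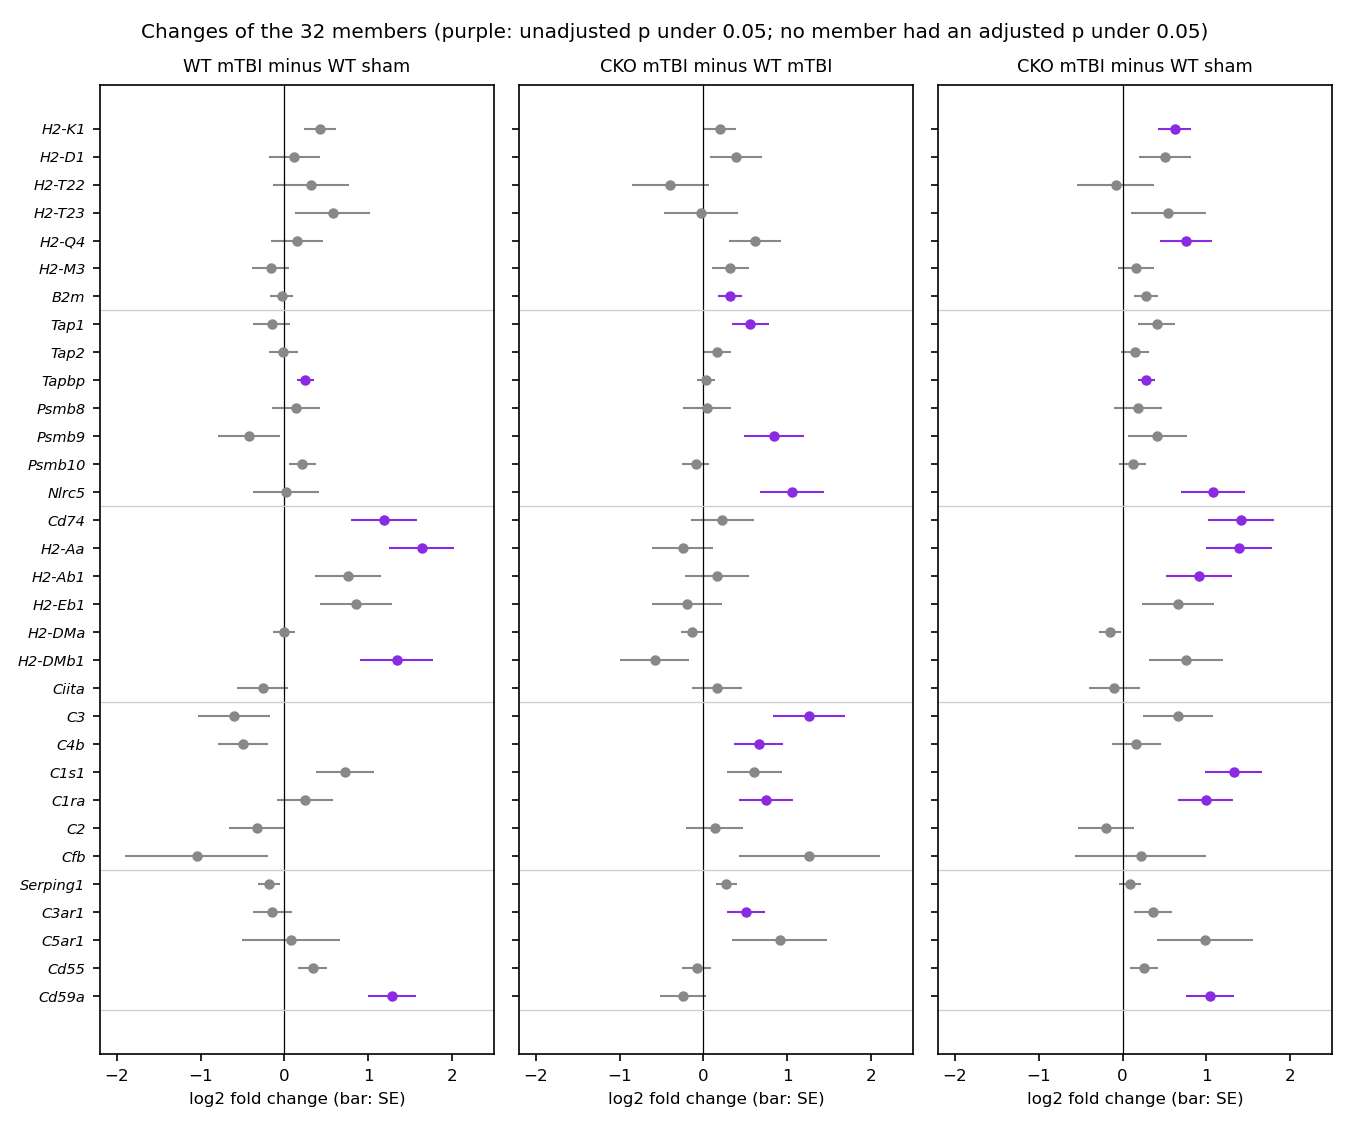
Log2 fold changes with SE (points and bars; x axis) of the 32 members (y axis, by role) in the 3 comparisons, with purple for an unadjusted p under 0.05. Cd74, H2-Aa, H2-DMb1, Tapbp and Cd59a are purple in the left panel, 8 other members in the middle panel and 10 members in the right panel, all right of 0.

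**Figure D2:**
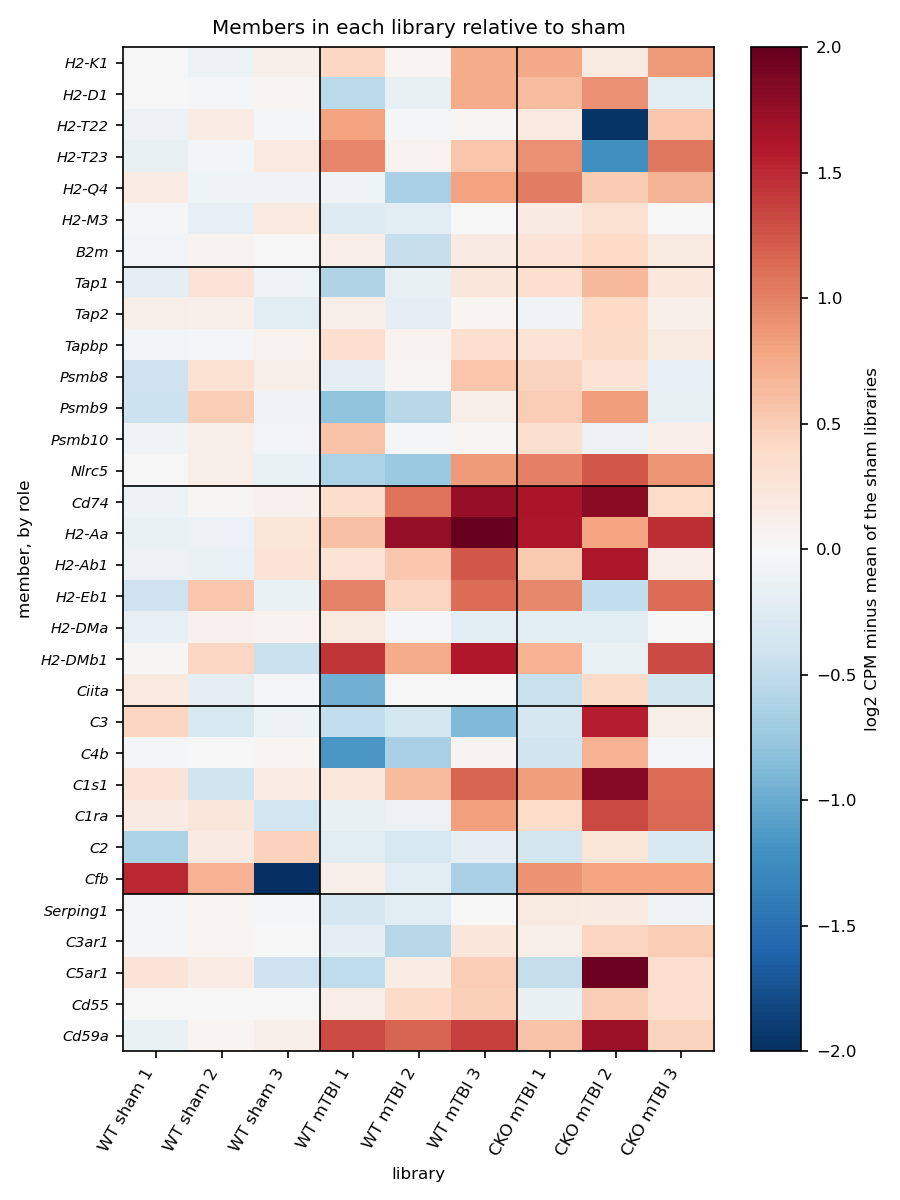
Log2 CPM of each member (rows of the map, by role) in each of the 9 libraries (columns), minus the mean of the libraries labelled sham, with colours limited at -2 and 2. Knockout mTBI replicate 2 is the darkest blue of the injured libraries for H2-T22 and H2-T23 and among the darkest red for C3, C1s1 and C5ar1.

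The class I chains were present in every library, and their median log2 fold change against the libraries labelled sham was 0.15 for wild-type mTBI and 0.51 for knockout mTBI, with 0.31 between the injured groups. B2m, the common light chain (chr2:122147686-122153083 on GRCm38), was at 67.6, 73.5 and 70.4 CPM in the libraries labelled sham, 76.9, 50.9 and 78.9 in wild-type mTBI and 84, 92.9 and 80.2 in knockout mTBI. All knockout libraries lay above all others, while wild-type mTBI replicate 2 was the lowest of the 9. B2m had a log2 fold change of 0.31 ± 0.14 (SE) between knockout and wild-type mTBI, with an adjusted p of 0.732 by edgeR. Without wild-type mTBI replicate 2 it was 0.15.

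H2-D1, a classical heavy chain (chr17:35262730-35267499), was at 46.2, 45.7 and 48.2 CPM in the libraries labelled sham, 32, 42.2 and 78 in wild-type mTBI and 71.4, 87.9 and 40.2 in knockout mTBI. Each injured group held libraries both above and below the libraries labelled sham. H2-K1, the other classical heavy chain (chr17:33996017-34000347), was at 17.2, 15.9 and 18.3 CPM, then 22.9, 17.5 and 28.6, then 29, 19.3 and 30.8 in the same order of groups. The knockout libraries all lay above those labelled sham, with a log2 fold change of 0.62 ± 0.19 and an adjusted p of 0.388 by edgeR. The wild-type mTBI libraries overlapped both of these groups.

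H2-Q4, a nonclassical heavy chain of the Q cluster, was at 3.3, 2.81 and 2.83 CPM in the libraries labelled sham, 2.8, 1.89 and 5.21 in wild-type mTBI and 6.09, 4.25 and 4.8 in knockout mTBI. The knockout libraries lay above those labelled sham (log2 0.76 ± 0.31, adjusted p 0.605 by edgeR) and overlapped those of wild-type mTBI. H2-M3, which presents formylated peptides, lay between 1.23 and 1.84 CPM over the 9 libraries, and its groups overlapped in every comparison. The remaining chains of this role, H2-T22 and H2-T23, are described with the MHC region below.

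**Figure D3:**
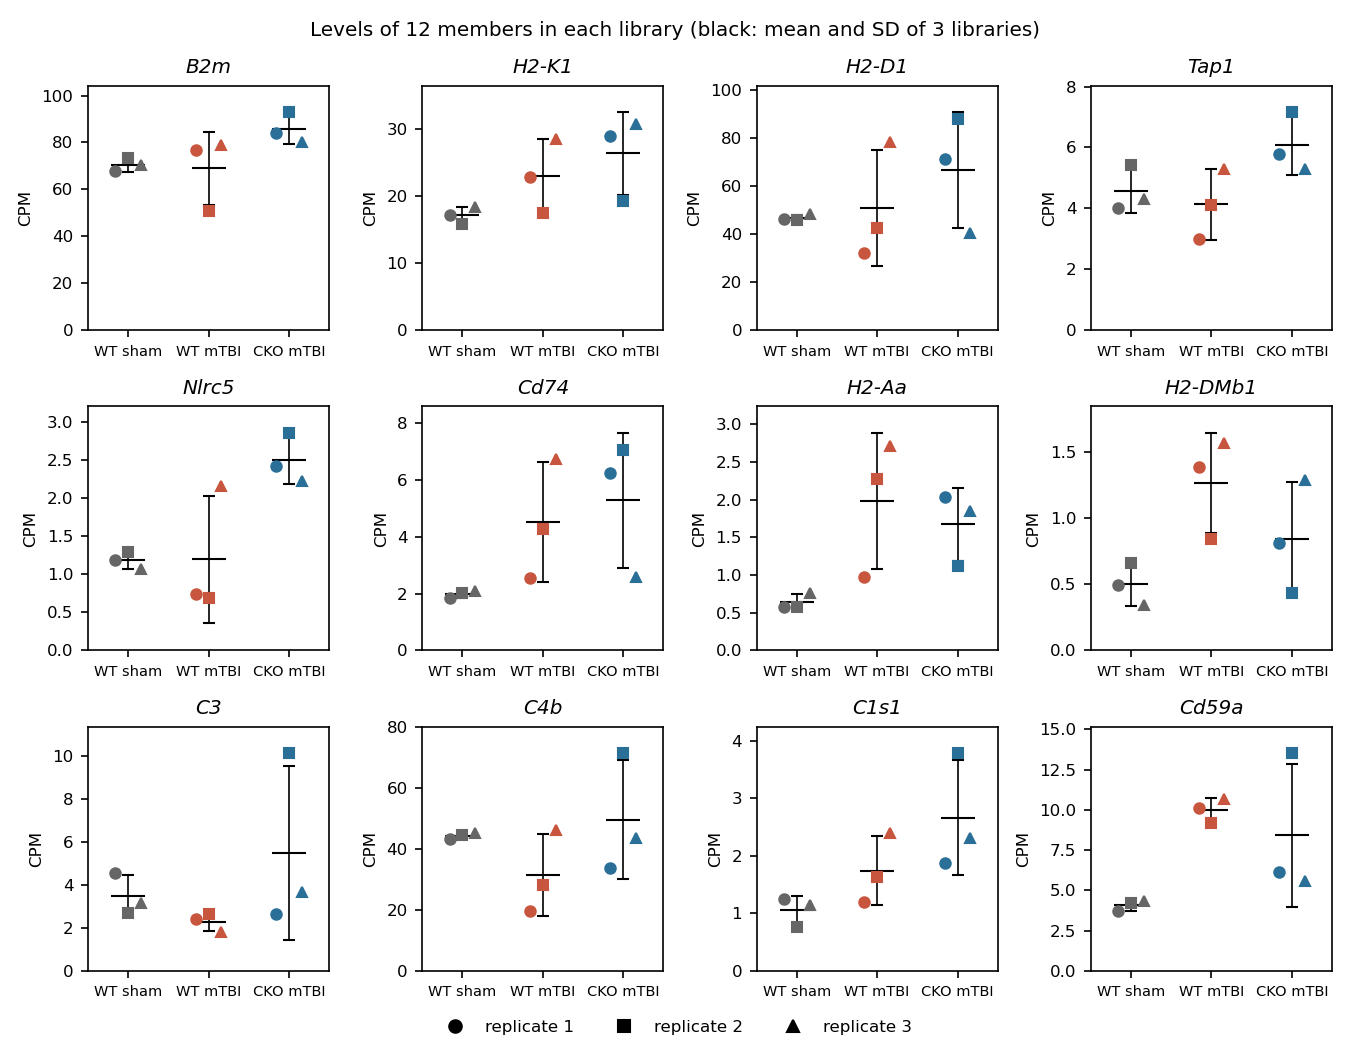
CPM (y axis, starting at 0) of 12 members in each library (points, with a symbol per replicate number) by group, with mean and SD of 3 libraries in black. The knockout mTBI libraries lie above all others for B2m and Nlrc5, all injured libraries lie above those labelled sham for Cd59a, H2-Aa and Cd74, and knockout mTBI replicate 2 lies highest for C3, C4b and C1s1.

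In the peptide pathway, the coactivator Nlrc5 (chr8:94434356-94527272) had the largest log2 fold change of the 7 genes in both comparisons of the knockout. It was at 1.19, 1.3 and 1.07 CPM in the libraries labelled sham, 0.744, 0.688 and 2.17 in wild-type mTBI and 2.43, 2.86 and 2.23 in knockout mTBI. The knockout libraries lay above all others, by a narrow margin over wild-type mTBI replicate 3. The log2 fold change was 1.06 ± 0.38 against wild-type mTBI (adjusted p 0.732 by edgeR) and 1.08 ± 0.38 against the libraries labelled sham (adjusted p 0.498). Without wild-type mTBI replicate 3 the first value was 1.81, with an adjusted p of 0.0812.

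Tap1, a subunit of the peptide transporter (chr17:34187553-34197225), was at 4.02, 5.43 and 4.29 CPM in the libraries labelled sham, 2.98, 4.1 and 5.31 in wild-type mTBI and 5.78, 7.16 and 5.29 in knockout mTBI. Knockout mTBI replicate 3 lay just below wild-type mTBI replicate 3, so the groups overlapped, and the log2 fold change was 0.56 ± 0.22 (adjusted p 0.732 by edgeR), or 0.37 without wild-type mTBI replicate 1. Psmb9, the immunoproteasome subunit that shares the promoter stretch printed above, differed by 0.84 ± 0.36 between the injured groups (adjusted p 0.732), at means of 1.06 ± 0.383 CPM (SD, n = 3) in wild-type and 1.90 ± 0.639 in knockout mTBI. The other transporter subunit Tap2 and the immunoproteasome subunits Psmb8 and Psmb10 had log2 fold changes between -0.09 and 0.16 in that comparison.

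Tapbp encodes tapasin, which bridges class I chains to the transporter. It was at 18, 18.4 and 19.6 CPM in the libraries labelled sham, 23.5, 19.5 and 23.6 in wild-type mTBI and 22.5, 24.5 and 21.1 in knockout mTBI. The knockout libraries lay above those labelled sham (log2 0.28 ± 0.10, adjusted p 0.509 by edgeR). Wild-type mTBI replicate 2 lay within the range of the libraries labelled sham, at a log2 fold change of 0.25 ± 0.10 for its group (adjusted p 0.324).

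Among the class II genes, the peptide-presenting chains H2-Aa, H2-Ab1 and H2-Eb1 and the invariant chain Cd74 had higher means in both injured groups than in the libraries labelled sham, with no member past the threshold of edgeR. By DESeq2, H2-Aa in wild-type mTBI (adjusted p 0.00743) and Cd74 in knockout mTBI (adjusted p 0.025) were called against the libraries labelled sham, and by voom H2-Aa in both and Cd74 in wild-type mTBI. The median log2 fold change of the 7 genes was 0.86 in wild-type and 0.76 in knockout mTBI against the libraries labelled sham, and -0.14 between the injured groups. H2-Aa, the alpha chain of the I-A molecule (chr17:34282744-34287823), was at 0.571, 0.579 and 0.759 CPM in the libraries labelled sham, 0.975, 2.27 and 2.71 in wild-type mTBI and 2.04, 1.13 and 1.85 in knockout mTBI. All 6 injured libraries lay above all 3 labelled sham, on 21 to 109 counts per library. For H2-Aa, the log2 fold change was 1.64 ± 0.39 in wild-type mTBI (adjusted p 0.0981 by edgeR) and 1.39 ± 0.39 in knockout mTBI (adjusted p 0.305). Over the 17 alternatives the first adjusted p ranged from 0.00248 to 0.417.

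Cd74, the invariant chain that escorts class II molecules, was at 1.84, 2.01 and 2.09 CPM in the libraries labelled sham, 2.54, 4.28 and 6.72 in wild-type mTBI and 6.22, 7.03 and 2.57 in knockout mTBI. Again all 6 injured libraries lay above those labelled sham, although 1 library of each injured group was only just above them. For Cd74, the log2 fold change was 1.19 ± 0.39 in wild-type mTBI (adjusted p 0.239 by edgeR) and 1.41 ± 0.39 in knockout mTBI (adjusted p 0.303). Without wild-type mTBI replicate 3 the first value was 0.78.

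H2-DMb1, a chain of the DM molecule that exchanges class II peptides, was at 0.493, 0.661 and 0.34 CPM in the libraries labelled sham, 1.39, 0.841 and 1.57 in wild-type mTBI and 0.811, 0.435 and 1.28 in knockout mTBI. Wild-type mTBI lay above the libraries labelled sham, and knockout mTBI overlapped both. The log2 fold change in wild-type mTBI was 1.34 ± 0.43 (adjusted p 0.228 by edgeR). Its partner H2-DMa, whose level per kilobase was higher, was at 11.4, 13.5 and 13.4 CPM, then 14.5, 12.6 and 11, then 10.8, 10.9 and 12.8, with overlapping groups and a log2 fold change of -0.01 in wild-type mTBI.

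H2-Ab1, the beta chain of I-A, was at 1.19, 1.19 and 1.57 CPM in the libraries labelled sham, 1.59, 1.91 and 3.16 in wild-type mTBI and 1.91, 4.09 and 1.44 in knockout mTBI. Wild-type mTBI replicate 1 lay only just above the libraries labelled sham and knockout mTBI replicate 3 lay among them. The log2 fold changes of H2-Ab1 were 0.75 ± 0.39 (adjusted p 0.433 by edgeR) and 0.91 ± 0.39 (adjusted p 0.652), and they were 0.40 without wild-type mTBI replicate 3 and 0.34 without knockout mTBI replicate 2. H2-Eb1, the beta chain of I-E, differed by 0.86 and 0.66 on the log2 scale with overlapping groups. Ciita, the class II coactivator, was at 3.01 ± 0.393 CPM in the libraries labelled sham, 2.51 ± 0.864 in wild-type and 2.82 ± 0.975 in knockout mTBI (SD, n = 3), with overlapping groups.

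Markers of cell types known to carry class II molecules, and separately those of choroid plexus epithelium, stood as follows in the same libraries. Microglia markers summed to 285 to 292 CPM in the libraries labelled sham, 262 to 305 in wild-type mTBI and 260 to 328 in knockout mTBI. Perivascular macrophage markers summed to 12.5 to 13.01, 7.16 to 10.9 and 8.68 to 17.3 CPM, and dendritic cell markers to 22.1 to 24.4, 20.3 to 22.6 and 23.8 to 24.6. Most of the dendritic cell sum came from Flt3 and Zbtb46, with means of 12.6 and 9.4 CPM over all libraries. The other dendritic cell markers Clec9a, Itgax and Xcr1 had means of 0.79, 0.285 and 0.0231 CPM. Choroid plexus markers summed to 43.1 to 44.4 CPM in the libraries labelled sham, 3120 to 4312 in wild-type mTBI, and 53.4, 3605 and 2904 in knockout mTBI replicates 1, 2 and 3. The part of these markers in the class II differences was not tested.

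None of the 6 complement components passed the threshold of edgeR in any comparison, while DESeq2 called C1s1 in knockout mTBI against the libraries labelled sham (adjusted p 0.0339), and the libraries of knockout mTBI differed widely among themselves. The log2 fold change between knockout and wild-type mTBI was above 0 for 6 of 6 components, against 50.2% of all genes. For the components it ran from 0.13 to 1.26 with a median of 0.70. The median was -0.41 in wild-type mTBI, with 4 of 6 below 0, and 0.44 in knockout mTBI against the libraries labelled sham. By library, the median log2 difference of the components from the mean of the libraries labelled sham was -0.19, -0.27 and -0.06 in wild-type mTBI and 0.01, 1.05 and 0.46 in knockout mTBI. Knockout mTBI replicate 2 had the highest median. In replicate 1 the components went both ways, from -0.40 for C4b to 0.90 for Cfb.

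C3, the central component (chr17:57203970-57228136), was at 4.57, 2.7 and 3.17 CPM in the libraries labelled sham, 2.41, 2.65 and 1.82 in wild-type mTBI and 2.67, 10.2 and 3.7 in knockout mTBI. The wild-type mTBI libraries lay below all others, the nearest of them by a small margin, and knockout mTBI replicate 2 was far above the rest. For C3, the log2 fold change was 1.26 ± 0.43 between knockout and wild-type mTBI (adjusted p 0.732 by edgeR) and -0.60 ± 0.43 between wild-type mTBI and the libraries labelled sham (adjusted p 0.567). Without knockout mTBI replicate 2 the first value was 0.47, and without replicate 1 of the libraries labelled sham the second was -0.36.

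C4b, the most abundant of the 6 listed components per kilobase (chr17:34728380-34743882), was at 43.2, 44.6 and 45.4 CPM in the libraries labelled sham, 19.8, 28.3 and 46.3 in wild-type mTBI and 33.7, 71.5 and 43.8 in knockout mTBI. Both low values belonged to wild-type mTBI replicates 1 and 2, and the injured groups overlapped. The log2 fold change between them was 0.66 ± 0.30 (adjusted p 0.732 by edgeR). It was 0.30 without knockout mTBI replicate 2, and leaving out replicates 1 or 3 of wild-type mTBI gave 0.41 or 1.05.

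C1s1 and C1ra encode the 2 proteases of the C1 complex and lie next to each other on chromosome 6. C1s1 (chr6:124530345-124542359) was at 1.25, 0.772 and 1.15 CPM in the libraries labelled sham, 1.21, 1.63 and 2.39 in wild-type mTBI and 1.88, 3.79 and 2.31 in knockout mTBI. Its knockout libraries lay above those labelled sham and overlapped wild-type mTBI, with a log2 fold change against the libraries labelled sham of 1.33 ± 0.34 (adjusted p 0.247 by edgeR). C1ra was at 2.18, 2.26 and 1.47 CPM, then 1.74, 1.78 and 3.46, then 2.51, 4.91 and 4.32 in the same order. It showed the same arrangement, with a log2 fold change of 0.99 ± 0.33 (adjusted p 0.445). C2 lay between 0.649 and 1.44 CPM in the 9 libraries with overlapping groups.

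Cfb, factor B of the alternative pathway, had 24, 12 and 0 counts in the libraries labelled sham, 8, 6 and 4 in wild-type mTBI and 15, 14 and 14 in knockout mTBI. The knockout libraries lay above those of wild-type mTBI, on few counts and over exons that another gene mostly overlaps.

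Among the regulators, Cd59a, which blocks the membrane attack complex (chr2:104095801-104115354), had the smallest p of all members in wild-type mTBI against the libraries labelled sham. It was at 3.71, 4.19 and 4.37 CPM in the libraries labelled sham, 10.1, 9.18 and 10.7 in wild-type mTBI and 6.12, 13.5 and 5.6 in knockout mTBI. All 6 injured libraries lay above those labelled sham, and knockout mTBI replicates 1 and 3 lay below every wild-type mTBI library. The log2 fold change was 1.29 ± 0.29 in wild-type mTBI, with an adjusted p of 0.0809 by edgeR that ranged from 3.77e-05 to 0.365 over the 17 alternatives. It was 1.04 ± 0.29 in knockout mTBI against the libraries labelled sham (adjusted p 0.302), and 0.51 without knockout mTBI replicate 2. The choroid plexus markers given above were 3120 to 4312 CPM in the 3 wild-type mTBI libraries. In knockout mTBI replicates 1, 2 and 3 they were 53.4, 3605 and 2904 CPM. Their part in the difference was not tested.

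Serping1, the C1 inhibitor, was at 9.68, 10.1 and 9.66 CPM in the libraries labelled sham, 7.72, 8.39 and 9.81 in wild-type mTBI and 11.2, 10.9 and 9.2 in knockout mTBI, with overlapping groups in each comparison. Cd55, which speeds the decay of the C3-cleaving enzyme, was at 6.13, 6.12 and 6.1 CPM, then 6.72, 7.95 and 8.52, then 5.52, 8.62 and 7.76. The wild-type mTBI libraries lay above those labelled sham, at a log2 fold change of 0.34 ± 0.17 (adjusted p 0.417 by edgeR), and knockout mTBI replicate 1 was the lowest of all 9.

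The receptors for the fragments released from C3 and C5 were low. C3ar1 was at 2.08, 2.2 and 2.15 CPM in the libraries labelled sham, 1.87, 1.43 and 2.52 in wild-type mTBI and 2.33, 2.92 and 3.03 in knockout mTBI. Its knockout libraries lay above those labelled sham and overlapped wild-type mTBI, with log2 fold changes of 0.36 ± 0.23 (adjusted p 0.875 by edgeR) and 0.51 ± 0.23 (adjusted p 0.732), the latter 0.34 without wild-type mTBI replicate 2. C5ar1 was between 0.436 and 0.922 CPM in 8 libraries and at 2.63 CPM in knockout mTBI replicate 2. In that library the neutrophil and monocyte genes S100a8 and S100a9 were at 2.35 and 3.66 CPM, against at most 0.747 and 1.90 in the other 8, and the microglia gene P2ry12 was at 16.7 CPM against 28.8 to 34.4. Their part in the high complement values of that library was not tested.

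The other genes of these pathways were taken from a list of 93, of which 91 matched the table and 74 were tested, from further class I genes to the C1q chains and the interferon axis. None passed edgeR's threshold in any comparison. At an unadjusted p under 0.05, 6 were higher (8.11%) and 4 lower (5.41%) in wild-type mTBI against the libraries labelled sham. Between knockout and wild-type mTBI, 5 were higher (6.76%) and 2 lower (2.7%), and between knockout mTBI and the libraries labelled sham 6 were higher (8.11%) and 1 lower (1.35%). The median log2 fold changes of the 74 genes were 0.02, 0.06 and 0.05 in this order.

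By smallest p, these were led in wild-type mTBI by Mr1, a class I-like molecule that presents vitamin metabolites, and Csmd3, a large neuronal protein with complement-control domains. Mr1 was at 5.19, 5.54 and 5.68 CPM in the libraries labelled sham, 7.54, 7.98 and 8.72 in wild-type mTBI and 7.16, 7.93 and 7.45 in knockout mTBI. All injured libraries lay above those labelled sham, at log2 fold changes of 0.56 ± 0.12 (adjusted p 0.0739 by edgeR) and 0.46 ± 0.12 (adjusted p 0.277). Csmd3 differed by -0.57 ± 0.14 in wild-type mTBI (adjusted p 0.117). Ctss, the protease that degrades the invariant chain, differed by 0.58 ± 0.18 in knockout mTBI against the libraries labelled sham (adjusted p 0.388). Between the injured groups, the class I gene H2-Q1 differed by 1.72 ± 0.48 at no more than 1.05 CPM in every library, and the proteasome subunit Psmb7 by -0.38 ± 0.13, each at an adjusted p of 0.732.

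The MHC region of chromosome 17 was taken from the start of H2-K1 to the end of H2-M3 (33996017 to 37274484 on GRCm38). In it, the nonclassical T genes H2-T22 and H2-T23 were low in 1 knockout library. H2-T22 (chr17:36037128-36042747), whose product is recognised by some gamma-delta T cells, was at 7.04, 8.52 and 7.49 CPM in the libraries labelled sham, 13.5, 7.47 and 7.75 in wild-type mTBI and 8.73, 1.92 and 11.1 in knockout mTBI. H2-T23 (chr17:36029773-36032855), whose product presents leader peptides of other class I chains, was at 3.51, 3.75 and 4.48 CPM, then 7.67, 4.08 and 5.75, then 7.37, 1.64 and 8.14. In both genes knockout mTBI replicate 2 was the lowest of the 9 libraries, while the highest values belonged to replicate 1 of wild-type mTBI and replicate 3 of knockout mTBI. The groups overlapped, at log2 fold changes of -0.40 ± 0.46 and -0.03 ± 0.44 between knockout and wild-type mTBI.

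The neighbouring non-member H2-T24, named after its values were seen, was at 0.819 CPM in knockout mTBI replicate 2 and at 3.98 to 8.58 CPM in the other 8 libraries. Of the 95 genes of the region with a mean of at least 1 CPM, 4 (4.21%) lay more than 2-fold outside all other 8 libraries in knockout mTBI replicate 2, namely H2-T22, H2-T23 and H2-T24, which were lower, and Ier3, which was higher. Over all 15605 genes at that level, 0.256% did so in the same library. None of the 95 genes did so in any of the other 8 libraries, including wild-type mTBI replicate 1. Non-member H2-T10, also named after its values were seen, was low in other libraries, at 0.924 CPM in wild-type mTBI replicate 1 and 1.13 in knockout mTBI replicate 3 against 3.44 to 4.73 in the remaining 7. Its highest value, 4.73 CPM, was that of knockout mTBI replicate 2, so not all T genes were low there.

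**Figure D4:**
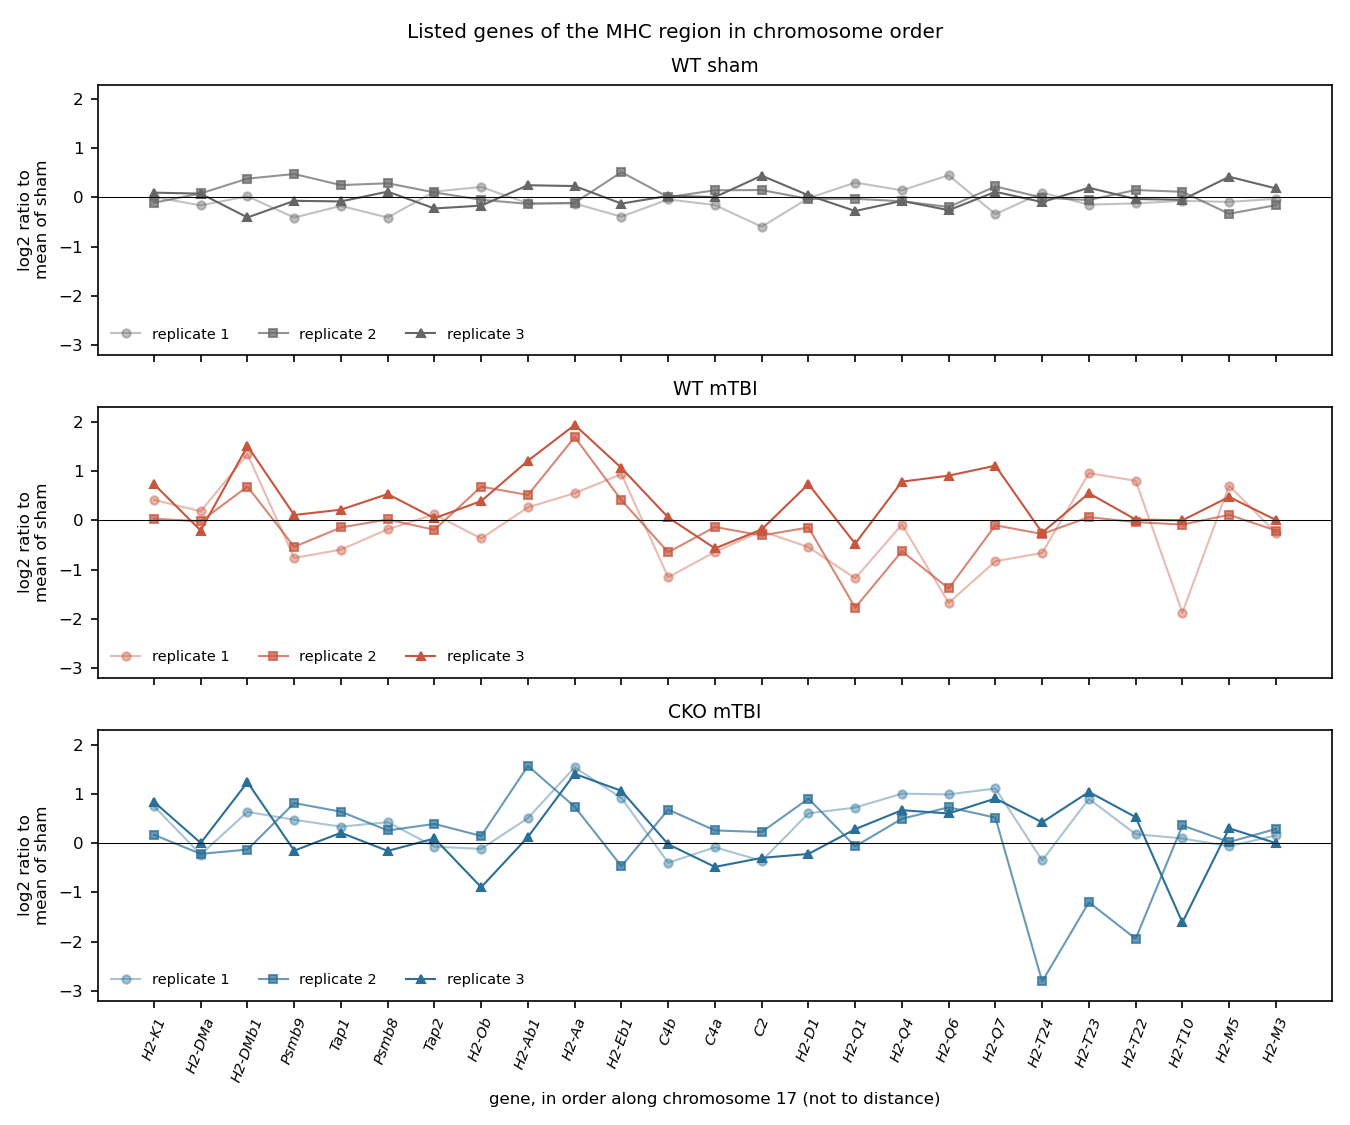
Log2 ratio of CPM to the mean of the libraries labelled sham (y axis) for the 25 listed genes of the MHC region with a mean of at least 0.5 CPM, in their order along the chromosome and not to distance (x axis), with 1 line per library and 1 panel per group. Knockout mTBI replicate 2 dips furthest at H2-T24, H2-T22 and H2-T23.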

How the data were processed

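Per the file headers, the authors made raw counts of reads per Ensembl gene with featureCounts 2.0.6 over Ensembl release 98 exons on GRCm38, and deposited them without normalization as 1 table of 9 libraries. The header shows no option for strand, for multi-mapping reads or for counting pairs as 1 fragment. Further tools listed in the submitters' processing notes, with no version, are HISAT2, SAMtools, Trim Galore, FastQC and MultiQC. The libraries were read as pairs of 150 bp.

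From these counts, filterByExpr kept 20032 of 55421 genes. They were scaled by TMM and tested in edgeR 4.0.16 (R 4.3.3) by its two-sided quasi-likelihood F test, in 1 fit of the 9 libraries and 3 groups, which share 1 estimate of spread (degrees of freedom 6 residual, 5.12 prior). Adjustment was by Benjamini-Hochberg over the genes tested, with calls at an adjusted p under 0.05. SE is the size of the log2 fold change divided by the square root of F. P-values measure the spread between these libraries, given as 3 mice a group. CPM used TMM-scaled totals. Levels per kilobase used GENCODE M21 exon lengths, and log2 CPM per library a prior count of 2. The test was checked on simulated data.

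The members, lists and tests were chosen with earlier results of these data known. Values per library are given for members called, for the 3 of smallest p in each comparison, for the 2 of highest mean CPM in each of 4 classes (class I with its peptide pathway, class II, complement components, receptors and regulators), and for members of at least 1 CPM whose groups do not overlap. The 2 other pathway genes of smallest p per comparison are named, as none was called. Alternatives were RLE or no composition scaling, DESeq2 1.42.0, limma 3.58.1 voom with sample quality weights, no filter, only the 6 libraries compared, a replicate block, counts divided by 2, and each library left out. Same-numbered libraries did not deviate together (correlations of residuals from -0.089 to 0.073), so the numbers were not taken as pairs. Promoter windows came from RefSeq on GRCm38.p6.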

Additional observations from a re-analysis of the deposited data

How the results depend on the processing

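No result changed direction among the members followed through the 17 alternatives of each comparison, apart from the median over the members in wild-type mTBI minus the libraries labelled sham (-0.13 without wild-type mTBI replicate 3). Calls did depend on the test and the filter. In that comparison DESeq2 called 2 members (H2-Aa and Cd59a), voom with sample quality weights 3 (Cd74, H2-Aa and Cd59a), the fit without a filter on low counts 3 (the same names) and the fit of the 6 libraries compared 1 (Cd59a), against 0. These settings called 544, 722, 676 and 253 of all genes (2.58%, 3.6%, 1.94% and 1.3%), against 102 (0.509%). Leaving out 1 library gave 0 to 1. The 1 was H2-Aa without wild-type mTBI replicate 1 (adjusted p 0.0291), and Cd59a without knockout mTBI replicate 1 (0.0492) or replicate 2 (0.00204), by edgeR. Between knockout and wild-type mTBI, the fit without a filter called 1 member (C3, adjusted p 0.0332) and 0.195% of all genes, and each library left out gave 0. In knockout mTBI minus the libraries labelled sham, DESeq2 called 3 (Cd74, C1s1 and Cd59a), voom 2 (H2-K1 and H2-Aa) and the fit without a filter 5 (these 5 names), at 1.08%, 1.39% and 1.11% of all genes against 0.0699%, and each library left out gave 0. The cause was not tested. The replicate block called 0 members in each comparison, with 6, 7 and 9 members at an unadjusted p under 0.05 against 5, 8 and 10. Of all genes it called 107, 3 and 13, against 102, 3 and 14. Members at an unadjusted p under 0.05 numbered 4 to 12, 1 to 12 and 7 to 14 over the alternatives, in the order of the comparisons. Depth is a limit for members with few counts, such as Cfb with 0 to 24 counts per library and H2-DMb1 with 13 to 63.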
